A study of Mus musculus with 24 samples.

Results

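Immediate early genes are transcribed within minutes of a stimulus, without new protein synthesis. 10 of them were followed here in the developing mouse jaw: the AP-1 subunits Fos, Fosb, Jun and Junb, the stress-inducible bZIP factor Atf3, the zinc finger factors Egr1 and Egr2, the nuclear protein Ier2, the phosphatase Dusp1 and the orphan nuclear receptor Nr4a1. They were taken by symbol, and each was read from the probe set (the group of oligonucleotides that measures a transcript) with the highest mean over 24 arrays. They make up 10 of the 18193 genes with a named probe set, and 9 of the 14879 genes that passed a filter on low signal. Fosb did not pass it and entered only the alternative fit without that filter.

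The tissue came from embryos at embryonic day 12.5 on a C57B6 background. Wnt1cre;Tgfbr2fl/+ mice had been crossed with Tgfbr2fl/fl mice, so that the type 2 TGF-beta receptor gene is lost where the Wnt1 promoter drives Cre. That promoter acts in the neural crest, from which the jaw mesenchyme derives, whereas epithelium, muscle and vessels come from other lineages. Mutants were recognised by their defects (cleft palate and a calvarial defect), and controls were their littermates, whose alleles are not stated. Mandible (lower jaw) and maxilla (upper jaw) were each cut in 2 pieces, called distal and proximal. Genotype, jaw and piece together give 8 groups of 3 arrays. Nothing states whether the 3 arrays of a group come from separate embryos, so p-values measure only the spread between these samples, part of which may be technical.

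Fos and Jun family proteins pair through leucine zippers to form AP-1, which binds its own genes among others. The genes are switched on by serum, growth factors and stress through MAP kinases, SRF with its Elk partners, and CREB, and Dusp1 dephosphorylates MAP kinases in a feedback loop. Egr1 is also known from tendon and Egr2 from hindbrain segmentation and Schwann cells. Handling and dissociation of tissue are known to induce the set, and whether they did so here was not tested.

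Motifs that those regulators bind were searched within 250 bases upstream of the annotated start in RefSeq promoter windows (build GRCm38.p6), on both strands. A window was matched for 8 of the 10 genes, Egr1 and Ier2 being the others. The CArG box, bound by SRF, was found in Egr2, against 1.62% of 27025 genes with a window. TGACGT, the core of the cAMP response element, was found in Fos, Egr2, Atf3 and Dusp1, against 7.29% of genes. TGACNTCA, a form of the AP-1 and ATF site, was found in Jun and Dusp1, against 8.55% of genes, and the match in Dusp1 overlaps TGACGT. A further form, TGCGTCA, was found in Fosb and Nr4a1, against 2% of genes, with 4 matches in Nr4a1. The 200 bases before the start are printed for 4 genes that the results below turn on and that hold the first 3 motifs, in lower case with motif matches in capitals. Of the 5 annotated windows of Egr2, the one with the most kinds of motif was taken. These matches describe the letters only.
Fos, chr12:85473690-85473889, plus strand: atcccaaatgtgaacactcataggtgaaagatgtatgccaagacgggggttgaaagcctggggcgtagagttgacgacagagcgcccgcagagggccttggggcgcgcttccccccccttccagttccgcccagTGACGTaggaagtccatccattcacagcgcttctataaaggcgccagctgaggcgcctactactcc
Jun, chr4:95052223-95052422, minus strand: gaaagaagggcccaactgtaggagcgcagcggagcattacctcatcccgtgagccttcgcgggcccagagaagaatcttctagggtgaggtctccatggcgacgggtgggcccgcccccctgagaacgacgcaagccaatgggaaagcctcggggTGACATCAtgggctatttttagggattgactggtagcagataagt
Egr2, chr10:67537669-67537868, plus strand: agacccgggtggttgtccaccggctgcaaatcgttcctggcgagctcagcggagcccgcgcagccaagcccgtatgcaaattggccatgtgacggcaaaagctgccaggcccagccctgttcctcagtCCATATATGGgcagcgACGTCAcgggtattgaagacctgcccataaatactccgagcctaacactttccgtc
Dusp1, chr17:26508473-26508672, minus strand: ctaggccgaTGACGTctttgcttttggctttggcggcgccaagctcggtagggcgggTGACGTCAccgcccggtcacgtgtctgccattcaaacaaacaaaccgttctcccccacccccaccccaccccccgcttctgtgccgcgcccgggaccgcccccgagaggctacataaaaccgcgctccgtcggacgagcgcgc

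All levels below are log2 signal as the authors deposited it, so that a difference of 1 is a doubling. The array medians lay between 7.26 and 7.38. The mesenchymal factor Prrx1 was at 12.2 to 13.6 on all 24 arrays, and the lower jaw factor Hand2 at 10.8 to 13.6 in mandible against 4.87 to 8.28 in maxilla. Tgfbr2 itself was at 11.78 ± 0.29 (SD, n = 12) on control and 12.11 ± 0.40 (SD, n = 12) on knockout arrays (difference 0.34, SE 0.11, limma adjusted p = 0.112). Its probe set was thus not lower in the knockout. No source used here says whether that probe set lies within the deleted stretch, so it does not check the labels, and control and knockout below mean arrays so labelled. 7 arrays correlated better with the other end of their own jaw and genotype than with their own group: control maxilla distal 1 and 2, control maxilla proximal 1, knockout mandible distal 1 and 2, knockout mandible proximal 1 and knockout maxilla proximal 3. Eif2s3y, a Y-linked gene, was above 8 on the 4 control arrays of number 2 and on no other array, so the control arrays differ in the sex of the embryos they hold.

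Jun and Egr1 carried the clearest pattern along the lower jaw. In controls both were low at the distal end of the mandible and high at its proximal end, while in the knockout the arrays of the ends overlapped. Fos and Egr2 differed in another way, through a few knockout arrays that stood far above the rest. Of the 9 genes tested, 8 (all but Ier2) were higher in the knockout as the mean over the 4 regions, against 53.7% of all genes. Egr2 is 1 of the 8, and its sign carries no weight, since it passed the filter only through 3 high knockout arrays. None of the 9 genes passed the test over all genes in that comparison. Ier2, Atf3, Dusp1 and Nr4a1 ranged over 0.67, 1.10, 0.80 and 0.62 across the arrays, less than Jun, Egr1, Fos and Egr2 did.

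**Figure D1:**
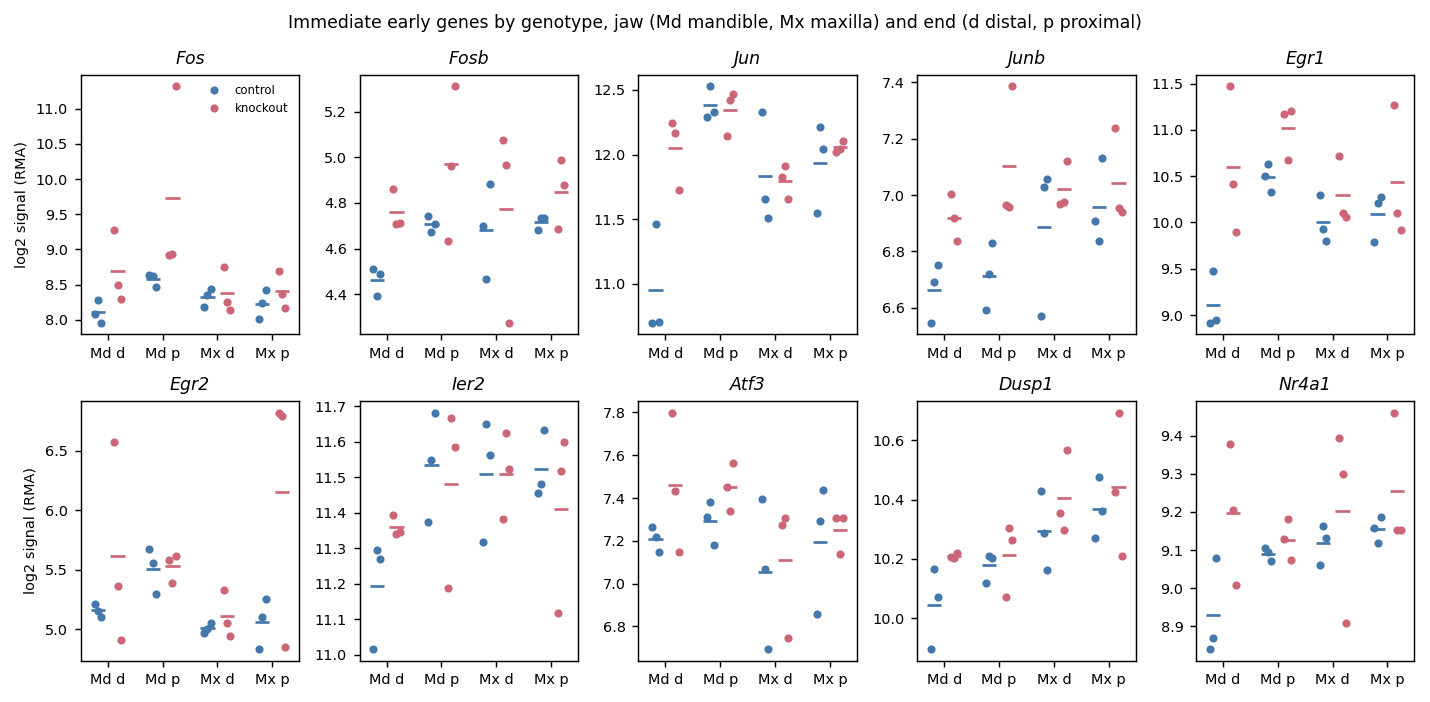
Log2 signal of each of the 10 genes (a panel each, with its own vertical scale) on every array, by region on the horizontal axis (Md d and Md p, distal and proximal mandible; Mx d and Mx p, distal and proximal maxilla); points are arrays and bars group means of 3. Jun and Egr1 are lowest in control distal mandible, 1 knockout array of Fos stands at 11.32, and 2 knockout maxilla proximal arrays of Egr2 stand at 6.79 and 6.82.

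Jun, the main partner of Fos in AP-1, stood at 10.70, 10.70 and 11.47 on the control distal mandible arrays. The control proximal mandible arrays were at 12.29, 12.33 and 12.53. The knockout distal mandible arrays were at 11.73, 12.17 and 12.25, and the knockout proximal ones at 12.14, 12.42 and 12.47. Every control distal array thus lay below every other mandible array, and the knockout distal arrays overlapped the knockout proximal ones. In the maxilla the control arrays were at 11.51, 11.66 and 12.33 distally and at 11.55, 12.04 and 12.21 proximally. The knockout maxilla arrays were at 11.65, 11.82 and 11.91 distally and at 12.02, 12.04 and 12.10 proximally. The order of the 8 group means ran from control proximal mandible (12.38 ± 0.13, SD, n = 3) to control distal mandible (10.96 ± 0.44, SD, n = 3). The neighbours in that order overlapped in their arrays except knockout proximal mandible above knockout proximal maxilla, and knockout distal maxilla above control distal mandible. A second Jun probe set gave a knockout minus control difference of 1.23 in distal mandible, against 1.09 for the one used.

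Egr1, a zinc finger factor induced with the AP-1 genes, followed the same order in control mandible. Its control distal arrays were at 8.92, 8.95 and 9.47, and its control proximal arrays at 10.33, 10.51 and 10.64. The knockout distal arrays spread widely, at 9.90, 10.42 and 11.47, and the knockout proximal arrays were at 10.67, 11.17 and 11.20. All 6 knockout mandible arrays were above the control arrays of the same end. In the maxilla the 6 control arrays lay between 9.79 and 10.29, and the 6 knockout arrays between 9.92 and 11.27, so that the genotypes overlapped there. Control distal mandible, with a mean of 9.11 ± 0.31 (SD, n = 3), was the only group separated from its neighbour in the order of Egr1 means.

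The ends of the mandible, compared over both genotypes, differed in Jun. Its distal minus proximal difference was -0.86 (SE 0.16, limma adjusted p = 0.038), a 1.82-fold lower signal distally, and it was the only one of the 9 genes called at an adjusted p under 0.05, against 0.504% of all genes tested. The 9 differences were all negative, with a median of -0.13, against 42.7% of all genes positive and a median of -0.02. Fos (-0.75, SE 0.30), Egr1 (-0.90, SE 0.25, adjusted p = 0.106) and Ier2 (-0.23, SE 0.10) joined Jun below an unadjusted p of 0.05, which 8.74% of all genes reached in that direction. The others were Junb at -0.12, Egr2 at -0.13, Atf3 at -0.04, Dusp1 at -0.07 and Nr4a1 at -0.05. Fosb, outside the fit, was at -0.23. The call on Jun was lost, with differences from -0.89 to -0.78 and adjusted p up to 0.126, when any 1 of 12 arrays was left out: control distal 1 or 3, control proximal 1, 2 or 3, knockout distal 2 or 3, knockout proximal 2 or 3, control maxilla proximal 3, and knockout maxilla distal 1 or 2. Without the control maxilla and knockout mandible arrays of number 1 at both ends, which include 4 of the 7 arrays that resembled the other end, Fos (-1.10, adjusted p = 0.0481) and Egr1 (-1.08, adjusted p = 0.0129) were called too. The Fos difference rests largely on knockout proximal mandible 3, which stays in that setting: without it the value over both genotypes was -0.36 (SE 0.16, adjusted p = 0.437).

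Within control mandible alone, a contrast chosen after the values were seen, Jun was 2.69-fold lower distally (-1.43, SE 0.22, limma adjusted p = 0.00478) and Egr1 2.60-fold lower (-1.38, SE 0.35, adjusted p = 0.037). These were 2 of 9 genes, against 3.45% of all genes at an adjusted and 18.6% at an unadjusted p under 0.05. The distal arrays of Fos, Jun, Egr1, Egr2 and Ier2 all lay below the proximal ones, 5 of 9 genes against 18.7% of all genes. Egr2 was below the filter level (5.85 to 5.93) on all of these arrays, at 5.11 to 5.67. It entered the count only through high knockout arrays, so its order here is among background values. The call on Egr1 was lost without control distal 1 or 3, or without control proximal 1, 2 or 3 (adjusted p from 0.0814 to 0.159), whereas Jun kept an adjusted p of at most 0.0405 whichever array was left out. In knockout mandible the differences were -0.30 (SE 0.22) for Jun and -0.42 (SE 0.35) for Egr1, and none of the 9 genes was called, against 0% of all genes (72 of 14879 genes, or 0.484%, passed before adjustment, Fos among them). The difference between the genotypes in this contrast was 1.13 for Jun (SE 0.31, unadjusted p = 0.00192, adjusted p = 0.721) and 0.96 for Egr1 (SE 0.49, adjusted p = 0.972). It was called for 0% of genes after adjustment and for 5.2% before, so a smaller distal to proximal step in the knockout did not pass the test over all genes. Knockout mandible distal 1 and 2 and proximal 1 correlated better with the other end, which no control mandible array did. The part of this in the overlap of the knockout ends was not tested.

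In the mandible, skeletal muscle genes too were lowest on the control distal arrays, where Jun and Egr1 were lowest. The mean of 8 of 8 muscle genes (Myod1, Myog, Myf5, Myh3, Actc1, Tnnt1, Ttn and Des) was 8.59, 10.54 and 6.69 on control distal mandible arrays 1 to 3, against 11.30 to 11.60 on control proximal, 11.07 to 12.01 on knockout distal and 11.39 to 11.67 on knockout proximal arrays. Control distal 2, the array with the highest muscle level of its group, was also the one with the highest Jun and Egr1 (11.47 and 9.47). Control distal 1 and 3 differed in muscle level (8.59 and 6.69) but were alike in Jun (10.70 each) and Egr1 (8.92 and 8.95). All 8 muscle genes were higher in knockout than in control distal mandible, with a median difference of 2.83, all at an unadjusted p under 0.05 and none called. Glial and Schwann cell markers (5 of 7 measured) followed the same order, at 7.77 to 8.07 in control distal, 9.60 to 9.82 in control proximal and 8.83 to 9.67 in knockout distal mandible. All 5 were higher in knockout than in control distal mandible (median 1.16), and Erbb3 was called (1.13, SE 0.19, limma adjusted p = 0.014). Between the mandible ends Sox10 (-0.83, adjusted p = 0.0449), Nefl (-2.37, adjusted p = 0.0434) and Nefm (-2.53, adjusted p = 0.0425) were called. The 6 jaw mesenchyme markers ran the other way, at 12.71 to 12.80 in control distal mandible against 12.18 to 12.32 in control proximal and 11.94 to 12.48 in knockout distal mandible. The part of muscle, glial or mesenchymal content in the Jun and Egr1 values was not tested. Less RNA per cell and fewer cells of a type cannot be told apart in such pieces of tissue.

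Knockout and control were compared first over the whole jaw, by averaging their differences in the 4 regions. No gene of the 9 was called, against 0.47% of all genes. Fos (0.49, SE 0.21, limma adjusted p = 0.176), Jun (0.28, SE 0.11, adjusted p = 0.142), Junb (0.22, SE 0.07, adjusted p = 0.0872), Egr1 (0.66, SE 0.17, adjusted p = 0.0623) and Nr4a1 (0.12, SE 0.06, adjusted p = 0.202) had unadjusted p below 0.05, 5 of 9 genes against 23.2% of all genes. The median of the 9 differences was 0.22, against 0.01 over all genes, and 8 of 9 were positive, against 53.7% of all genes. Ier2 was the exception, with a difference of -0.0003 (95% interval from -0.14 to 0.14). The other 3 were Egr2 at 0.42 (SE 0.20), Atf3 at 0.13 (SE 0.09) and Dusp1 at 0.10 (SE 0.05). The sign of Egr2 carries no weight in the count of 8, since it passed the filter only through knockout arrays. For none of the 9 genes were all 12 knockout arrays above or below all 12 control arrays, which held for 0.0336% of all genes. Single arrays decided some calls. Egr1 was called without control mandible distal 2, knockout mandible distal 3, knockout maxilla distal 3 or knockout maxilla proximal 3 (0.69 to 0.74, adjusted p from 0.0126 to 0.0499). Without knockout maxilla proximal 3, Junb (0.23, adjusted p = 0.0357) and Egr2 (0.58, adjusted p = 0.0109) were called as well, although Egr2 entered the test only through the 3 knockout arrays on which it was high, so its call carries no weight. Without that array 2132 genes were called over all genes, in place of 70.

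**Figure D2:**
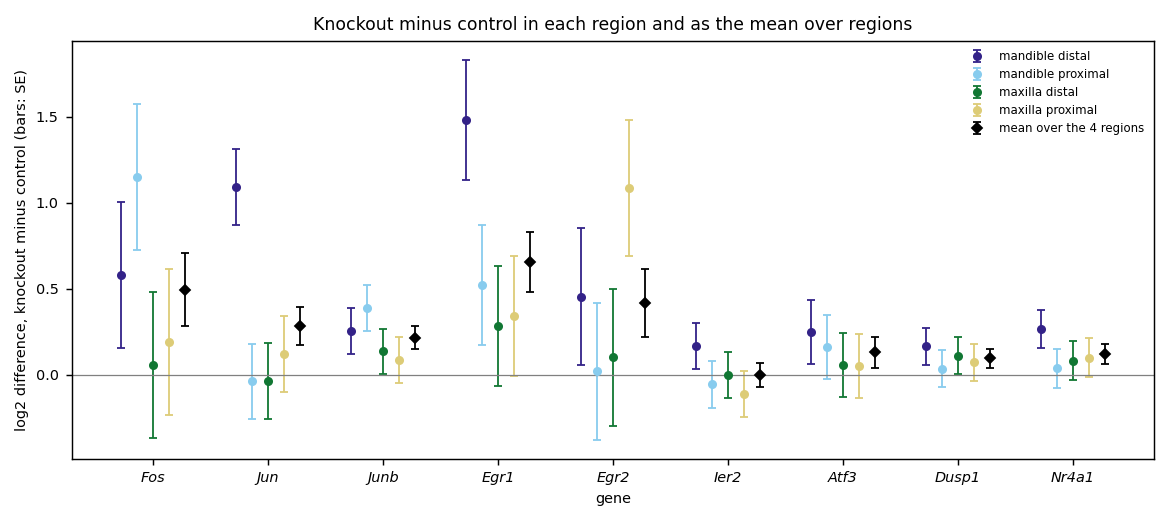
Knockout minus control difference in log2 signal (vertical axis) for the 9 genes tested (horizontal axis), in each of the 4 regions (circles) and as their mean (diamonds); bars are standard errors of the limma fit. Jun (1.09) and Egr1 (1.48) differ most in distal mandible, Fos (1.15) in proximal mandible and Egr2 (1.09) in proximal maxilla, and Ier2 has a mean at 0.

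In distal mandible the knockout mean was higher for all 9 genes, against 53.7% of all genes, with a median difference of 0.27, against 0.01. Egr2 carries no weight in that count. It passed the filter only through knockout arrays, array 1 of this group (6.57) among them. On knockout distal mandible 3 it was at 4.91, below the control arrays (5.11 to 5.22). Jun was 2.13-fold higher (1.09, SE 0.22, limma adjusted p = 0.0623) and Egr1 2.80-fold higher (1.48, SE 0.35, adjusted p = 0.0993), and neither was called. None of the 9 genes was called there, against 0.134% of all genes, and 3 (Jun, Egr1 and Nr4a1) had an unadjusted p under 0.05, against 12.6%. The others were Fos at 0.58, Junb at 0.26, Egr2 at 0.45, Ier2 at 0.17, Atf3 at 0.25, Dusp1 at 0.17 and, outside the fit, Fosb at 0.30. The knockout arrays all lay above the control arrays for 6 of 9 genes (Fos, Jun, Junb, Egr1, Ier2 and Dusp1), against 7.66% of all genes. Jun was called when 1 of 5 arrays was left out, namely control mandible distal 2 (1.35, adjusted p = 0.008), knockout mandible distal 3 (1.25, adjusted p = 0.02), control maxilla distal 1, control maxilla proximal 1 or knockout maxilla proximal 3 (1.09 each, adjusted p = 0.0197, 0.0405 and 0.0475). Egr1 was called without control mandible distal 2 (1.66, adjusted p = 0.046), knockout mandible distal 3 (1.83, adjusted p = 0.0204) or knockout maxilla proximal 1 (1.48, adjusted p = 0.045). Over all genes, 258 were called without knockout mandible distal 3, in place of 20. Control distal mandible 1 was the array with the lowest value of all 24 for 6 of the 10 genes. Knockout distal mandible 1, which correlated better with the proximal end, was the highest of its group for 9 of the 10. The macrophage list (9 genes) was at 9.33 on that array and at 8.09 to 8.44 on control distal mandible. The part of those cells in the values was not tested.

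In proximal mandible Fos differed most, at 1.15 (SE 0.42, unadjusted p = 0.0142, limma adjusted p = 1), followed by Egr1 at 0.52 (SE 0.35) and Junb at 0.39 (SE 0.13, unadjusted p = 0.00909). Without knockout proximal mandible 3 they stood at 0.35 (Fos, SE 0.23) and 0.25 (Junb, SE 0.13). Jun did not share this direction there, at -0.04 (95% interval from -0.50 to 0.42), and Egr2 was at 0.02, Ier2 at -0.06, Atf3 at 0.16, Dusp1 at 0.03, Nr4a1 at 0.04 and, outside the fit, Fosb at 0.26. None of the 9 genes was called, against 0.0538% of all genes, and 2 had an unadjusted p under 0.05, against 2.86%. The knockout arrays lay above the control arrays for 3 genes (Fos, Junb and Egr1), against 5.3% of all genes. Marker lists differed in the same region. All 7 epithelial genes were higher in the knockout (median 0.98, 4 of them at an unadjusted p under 0.05, none called). All 8 neuronal genes were lower (median -1.19, 6 at an unadjusted p under 0.05), and Pou4f1 was called (-3.07, SE 0.48, limma adjusted p = 0.0185). Their part in the Fos, Junb and Egr1 values was not tested.

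In the maxilla the genotypes overlapped on the arrays of each of the 9 genes. In distal maxilla the differences ran from -0.04 (Jun) to 0.28 (Egr1, SE 0.35), with Fos at 0.06, Junb at 0.14, Egr2 at 0.10, Ier2 at 0, Atf3 at 0.06, Dusp1 at 0.11, Nr4a1 at 0.08 and, outside the fit, Fosb at 0.09. None was called, against 0.0202% of all genes, none had an unadjusted p under 0.05, against 2.65%, and none was separated with the knockout above, against 4.07%. In proximal maxilla Egr2 stood apart at 1.09 (SE 0.40, limma adjusted p = 0.0983). It passed the filter only through knockout arrays on which it was high, arrays 1 and 2 of this group among them. Its p-value there carries no weight. The others lay between -0.11 (Ier2) and 0.34 (Egr1), with Fos at 0.19, Jun at 0.12, Junb at 0.09, Atf3 at 0.05, Dusp1 at 0.07, Nr4a1 at 0.10 and, outside the fit, Fosb at 0.13. None was called, against 5.77% of all genes, 1 (Egr2) had an unadjusted p under 0.05, against 25.9%, and none was separated with the knockout above, against 10.8%.

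The genotype difference was then compared between jaws and between ends as an interaction. Between jaws none of the 9 genes was called, against 0.0336% of all genes. Jun alone had an unadjusted p under 0.05 (mandible minus maxilla 0.48, SE 0.22, limma adjusted p = 0.723), against 6.62% of genes. Fos was at 0.74, Junb at 0.21, Egr1 at 0.69, Egr2 at -0.36, Ier2 at 0.11, Atf3 at 0.15, Dusp1 at 0.0069, Nr4a1 at 0.06 and, outside the fit, Fosb at 0.17. Between ends none was called, against 0.00672%, and again only Jun had an unadjusted p under 0.05 (distal minus proximal 0.49, SE 0.22, adjusted p = 1), against 4.29%. Fos was at -0.35, Junb at -0.04, Egr1 at 0.45, Egr2 at -0.28, Ier2 at 0.17, Atf3 at 0.05, Dusp1 at 0.08, Nr4a1 at 0.11 and, outside the fit, Fosb at -0.0039. Each of these contrasts averages distal mandible with another region, so neither sets it directly against the others. The direct contrast with proximal mandible, chosen after the values were seen, gave 1.13 for Jun (limma unadjusted p = 0.00192, adjusted p = 0.721). For Egr1 it gave 0.96 (adjusted p = 0.972), and neither was called.

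Fos, which joins AP-1 as a partner of Jun proteins, was dominated by a single array. The knockout proximal mandible arrays were at 8.93, 8.93 and 11.32, the last being array 3. The other 23 arrays lay between 7.96 and 9.28, and the control proximal mandible arrays at 8.46, 8.62 and 8.64. The remaining 2 knockout arrays of that group were still above the 3 controls. Control distal mandible was at 7.96, 8.08 and 8.28 and knockout distal mandible at 8.29, 8.49 and 9.28, with a narrow gap between the genotypes. The 6 control maxilla arrays spanned 8.01 to 8.44 and the 6 knockout ones 8.14 to 8.75. Without knockout proximal mandible 3 the difference in that region was 0.35 (SE 0.23) in place of 1.15, and the mean over regions 0.30 (SE 0.11, limma adjusted p = 0.152) in place of 0.49. No pair of neighbours in the order of the 8 group means of Fos was separated.

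Fosb and Junb were also highest on that same array. Fosb, a relative of Fos, was below the 30th percentile of its array on all 24 arrays (4.28 to 5.31), so it was tested only without the filter, where the mean knockout minus control difference was 0.20 (SE 0.09, limma adjusted p = 0.205). Junb, which also pairs with Fos proteins, was at 6.96, 6.96 and 7.39 in knockout proximal mandible and at 6.59, 6.72 and 6.83 in control. Its knockout distal mandible arrays were at 6.84, 6.92 and 7.005, against 6.55, 6.69 and 6.75 in control, so that the genotypes were separate at both ends of the mandible. In the maxilla the control arrays of Junb lay between 6.57 and 7.13 and the knockout arrays between 6.94 and 7.24, and they overlapped. The Junb difference was positive in all 4 regions, from 0.09 to 0.39.

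The array with the Fos peak stood apart in other genes as well. On knockout proximal mandible 3, 24 genes exceeded every other array by more than 1, and Fos was seventh in that order with a gap of 2.03. Ahead of it came Tac2, Coch, Scel, Gabrp, Lgals3 and Krt19, and after it Psca, Anxa9 and Tgm1. Several of these are known from surface epithelium, among them Scel and Tgm1, which serve the cornified envelope, and the keratin Krt19. Scel was at 9.24 there and at most at 6.71 elsewhere. The 7 epithelial markers fixed for the comparison gave a mean of 10.89 on this array, above the control proximal mandible arrays (8.80 to 9.98) and next to knockout proximal mandible 1 (10.88), where Fos was at 8.93. Over all arrays that list spanned 8.77 to 11.39. Its genes were not alike on the array of the Fos peak. Krt8 was highest there, at 12.27, and Krt18 (11.25) and Krt5 (10.97) were above their medians over all arrays (9.43 and 10.15). Krt14 (9.49) and Trp63 (9.39) were below theirs (10.22 and 10.18). Epcam (11.61) and Cdh1 (11.24) were close to theirs (11.58 and 11.23). The part of such epithelium in the Fos value was not tested.

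Egr2 was high on 3 knockout arrays only. It was at 4.85, 6.79 and 6.82 in knockout proximal maxilla and at 4.91, 5.36 and 6.57 in knockout distal mandible. The other 18 arrays, in 6 groups, lay between 4.84 and 5.67, including control proximal maxilla at 4.84, 5.11 and 5.26. On these 3 high arrays alone Egr2 exceeded the filter level (the 30th percentile, 5.85 to 5.93), so it passed the filter through them. A second Egr2 probe set, below that level on all arrays, gave a difference of 1.23 in proximal maxilla. Without knockout proximal maxilla 1 and 2 the difference there was -0.21 (SE 0.38). Without array 3 of that group it was 1.74 (SE 0.29). The knockout arrays left there are ones through which Egr2 passed the filter, so no p-value is read from them.

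Neuronal genes were high on the same proximal maxilla arrays. The mean of 8 of 8 neuronal markers was 12.74 and 12.65 on knockout proximal maxilla 1 and 2, 10.96 on array 3, and at most 10.74 on the other arrays. Glial and Schwann cell markers (5 of 7 measured) were at 10.87 and 10.62 on the first pair. The epithelial list was low there, at 8.77 and 8.82, against 10.63 on array 3. On both of these arrays 208 genes exceeded every other array by more than 1, and Egr2, with a gap of 0.22 over knockout distal mandible 1, was not among them. The share of neural tissue in the Egr2 value was not tested. On that last array, also high in Egr2, the neuronal list was at 8.91 and the glial and Schwann cell list at 9.67, the highest of its group and above control distal mandible (7.77 to 8.07).

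**Figure D3:**
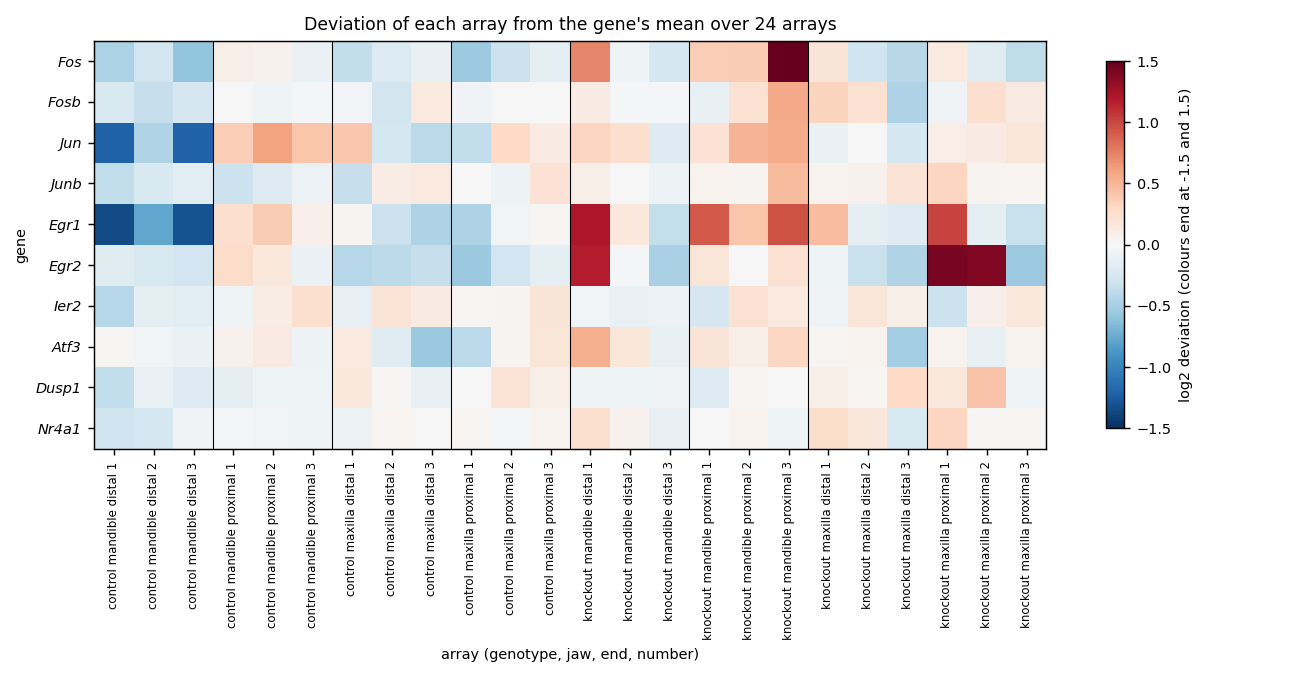
Deviation of each of 24 arrays (columns, grouped by genotype, jaw and end) from the mean of the gene over all arrays, in log2 units, for the 10 genes (rows); colours end at 1.5 in either direction. The high arrays differ between genes: knockout mandible proximal 3 for Fos, Fosb and Junb, knockout maxilla proximal 1 and 2 for Egr2, and control mandible distal is low for Jun and Egr1.

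The remaining genes varied less than Jun, Egr1, Fos and Egr2. Ier2 ranged over 0.67 across the 24 arrays, from 11.02 on control distal mandible 1 to 11.68 on control proximal mandible 3. Its control distal mandible arrays (11.02, 11.27 and 11.30) lay just below the knockout ones (11.34, 11.35 and 11.39), and the genotypes overlapped elsewhere. Atf3, which is induced by many stresses, ranged from 6.70 to 7.80, its highest array being knockout distal mandible 1, and no pair of neighbouring groups was separated. Nr4a1 ranged from 8.84 to 9.46, and its control proximal mandible arrays, at 9.07, 9.10 and 9.10, spanned the narrowest range of its 8 groups. Its difference in distal mandible was 0.27 (SE 0.11, unadjusted p = 0.0286, limma adjusted p = 0.331).

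Dusp1, the MAP kinase phosphatase, was slightly lower in the mandible. The 12 mandible arrays had a mean of 10.16 and the 12 maxilla arrays of 10.38, a difference of -0.22 (SE 0.05, limma adjusted p = 0.0033), or a 1.16-fold lower signal in the mandible. The control arrays were at 9.90, 10.07 and 10.16 in distal and at 10.12, 10.20 and 10.21 in proximal mandible. The control maxilla arrays were at 10.16, 10.29 and 10.43 distally and at 10.27, 10.36 and 10.48 proximally. The knockout arrays were at 10.20, 10.21 and 10.22 in distal mandible and at 10.07, 10.26 and 10.30 in proximal mandible, against 10.30, 10.35 and 10.57 in distal maxilla and 10.21, 10.42 and 10.69 in proximal maxilla. The ranges of the jaws overlapped in both genotypes. Dusp1 was the only one of the 9 genes called between jaws, where 46.6% of all genes were called. Atf3 was at 0.20 (SE 0.09, adjusted p = 0.0833), and was called without control maxilla distal 1 (0.24, adjusted p = 0.0333) or without knockout mandible distal 3 (0.24, adjusted p = 0.0379). Fos was at 0.44 (SE 0.21, adjusted p = 0.0989), and Jun at 0.03 (95% interval from -0.20 to 0.26). Junb was at -0.13, Egr1 at 0.10, Egr2 at 0.12, Ier2 at -0.10, Nr4a1 at -0.10 and, outside the fit, Fosb at -0.03. Between the ends of the maxilla none of the 9 genes was called, against 0.0336% of all genes, and none had an unadjusted p under 0.05, against 18.2%. The largest difference there was that of Egr2, at -0.55. It rests on knockout proximal maxilla 1 and 2 (6.82 and 6.79), through which Egr2 passed the filter, so no p-value is read from it. Fos was at 0.04, Jun at -0.18, Junb at -0.05, Egr1 at -0.11, Ier2 at 0.04, Atf3 at -0.14, Dusp1 at -0.06, Nr4a1 at -0.04 and, outside the fit, Fosb at -0.06.

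The genes correlated with one another to differing degrees. Over the 24 arrays, which share groups and pieces of tissue, the closest pair was Jun and Egr1 (Pearson r of 0.80), followed by Fos and Egr1 (0.66, or 0.857 without the array where Fos peaks). Junb was closest to Fos (0.554, or 0.293 without that array), and Dusp1 to Junb (0.396). None of the 9 genes past the filter was among the 3 genes nearest to another, and Fosb was not in that search. With 14879 genes searched that bar is strict, so it cannot decide whether the genes vary together. By place among all genes, Egr1 came 70 for Jun and 108 for Fos, Jun 125 for Egr1, and Fos 70 for Junb. For Egr2, Ier2, Atf3, Dusp1 and Nr4a1 the closest of these genes lay between place 431 and place 2806. Nearest to Fos were Scel (0.95, or 0.768 without the peak array), Paqr6 (0.947, or 0.75) and Mal (0.911, or 0.603). Nearest to Jun were the nuclear receptor gene Nr2f2 (0.928), A830082K12Rik (0.917) and Pkdcc (0.914). Nearest to Egr1 were Sorcs2 (0.915), the lysophosphatidic acid receptor gene Lpar3 (0.914) and the protease gene Ctsk (0.91). Nearest to Egr2 were Prdm8 (0.929), Pnma2 (0.921) and Cntnap4 (0.914).

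Nearest to Junb was N4bp2l1 (0.816), followed by S100a1 (0.728) and Fmo5 (0.684), the latter pair being lower without the peak array (0.627 and 0.605). Nearest to Ier2 were Prtn3 (0.88), Traf3ip1 (0.795) and Nek4 (0.767). Atf3 was nearest to Add3 (0.891), Colec12 (0.871) and Man2a1 (0.862). Dusp1 was nearest to Hspa4l (0.905), Acsl6 (0.903) and Uhmk1 (0.9), and Nr4a1 to Gng7 (0.847), Ankrd34a (0.816) and Pdgfb (0.815). The partners thus differed from gene to gene, and no name recurred among the 27.

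**Figure D4:**
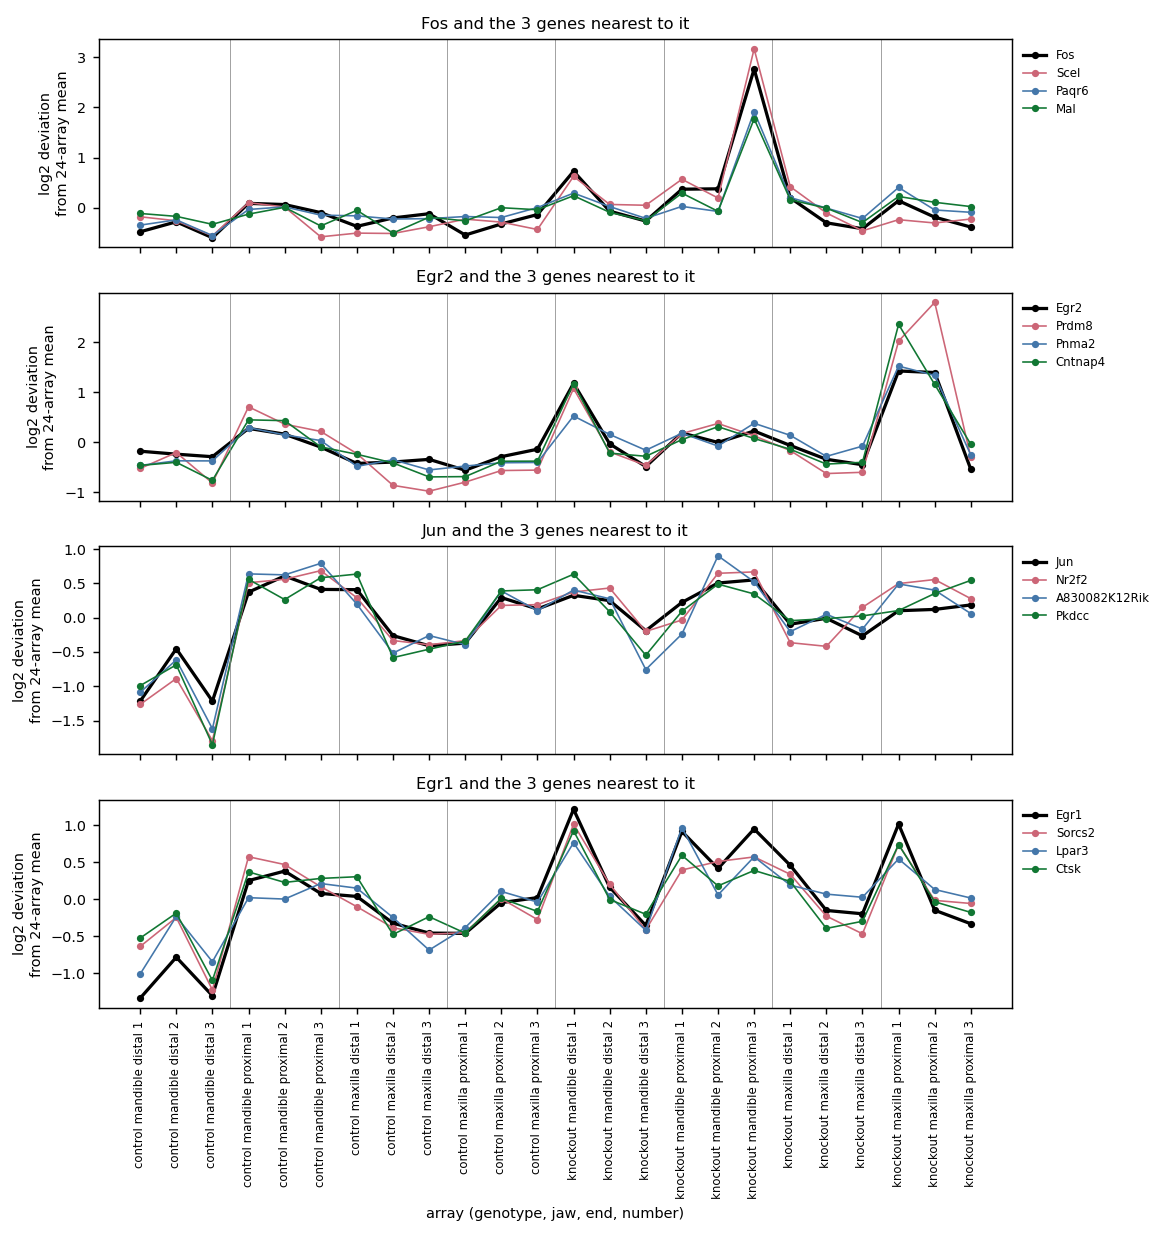
Log2 deviation from the mean over 24 arrays (vertical axis) on each array (horizontal axis) for Fos, Egr2, Jun and Egr1 (black) and the 3 genes with the highest Pearson correlation to each (colours). Fos and its nearest genes share 1 peak, on knockout mandible proximal 3, whereas Jun and its nearest genes share low values in control mandible distal.

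Few related genes were called between genotypes. As the mean over regions, 0.47% of all genes were called and 23.2% had an unadjusted p under 0.05. Of 11 other AP-1 and bZIP genes tested, 0 were called as the mean over regions and 2 had an unadjusted p under 0.05, with a median of 0.08; Jund, another Jun family member, was at 0.25 (limma adjusted p = 0.0993) and Jdp2 at 0.13. Of 33 other immediate early genes, 0 were called, 4 were positive and 3 negative at an unadjusted p under 0.05, and the median was -0.01, against 0.01 over all genes. Ier3 (0.31, adjusted p = 0.0983) and the kinase gene Plk3 (0.28, adjusted p = 0.0873) had the largest differences among them. Of 9 genes for SRF, its cofactors and Egr corepressors, 0 were called (median -0.01; Elk1 at -0.10 and Elk3 at -0.08).

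Of 7 MAP kinase genes tested, 0 were called and 1 had an unadjusted p under 0.05, against 0.47% and 23.2% of all genes. Mapk8 was at 0.12 (limma adjusted p = 0.124) and Map2k1 at 0.09. Of 14 MAP kinase phosphatase and Sprouty genes, 0 were called and 4 were positive at an unadjusted p under 0.05 (median 0.06; Dusp10 at 0.29, Dusp8 at 0.28). Of 9 heat shock genes 1 was called, the small heat shock gene Cryab (0.95, SE 0.18, limma adjusted p = 0.0347), which muscle also expresses, and the median of that list was 0.02. In proximal maxilla Plk3 (0.59, SE 0.17, adjusted p = 0.0472) and the phosphatase gene Dusp8 (0.69, SE 0.19, adjusted p = 0.0441) were called. Each was the only 1 called of its list (33 and 14 genes), against 5.77% of all genes. Between jaws 8 of the 14 phosphatase and Sprouty genes were called, where 46.6% of all genes were, 6 of them lower in the mandible like Dusp1, with Dusp4 at -1.14 (SE 0.11, adjusted p = 7.36e-07), Dusp8 at -0.59 (SE 0.10) and Dusp5 at -0.33 (SE 0.06), while Dusp2 was at 0.32 (SE 0.06).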

How the data were processed

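The deposited values are log2 signals for 45101 probe sets on 24 arrays, made by the authors with RMA per the submitters' processing notes (background correction, quantile normalisation and a summary per probe set; version not given in the sources used here). RMA forces arrays to like distributions, so a shift shared by most genes cannot be seen. 34945 probe sets have 1 gene symbol in GEO's platform annotation, 932 several and 9160 none; only the first were named, and symbols were updated through Entrez identifiers to RefSeq (GRCm38.p6). Per gene the probe set with the highest mean was kept. Genes above the 30th percentile of the array on at least 3 arrays (14879) were fitted with limma 3.58.1 in R 4.3.3 as 8 group means with 1 shared spread, two-sided, with Benjamini-Hochberg adjustment over all of them. "Called" means an adjusted p under 0.05. The number of arrays limits the precision, and no 2 arrays held the same values. The fit was tested on simulated data.

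All 10 members are named in every planned comparison. From a related list at most 4 called genes, or the 2 with the largest genotype difference, are named. For each member tested its 3 best correlated genes are given. The members and lists were chosen with earlier results of these data known. Contrasts within 1 genotype of the mandible, and the arrays and genes singled out, were chosen after values were seen. Replicate numbers were checked as a pairing: arrays of the same number and region in the other genotype had deviations with a median correlation of 0.0513, over 0.1 in 5 of 12 pairs. Arrays of the same number and genotype in the other jaw had a median of 0.187, over 0.1 in 17 of 24 pairs. Not every pair was over 0.1 and no label ties numbers to embryos, so no block was used. Eif2s3y was above 8 on just the 4 control arrays of number 2, so arrays of a number may share embryos. The main fit treats all arrays as independent and does not allow for that. Other scalings, filters, probe set rules, priors, blocks and left-out arrays were tried.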

Additional observations from a re-analysis of the deposited data

How the results depend on the processing

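With fixed array numbers as a replicate block, 2 genes were called for the mean genotype difference (Junb, adjusted p = 0.045; Egr1, adjusted p = 0.0259) and 1 in distal mandible (Jun, adjusted p = 0.0356); with genotype and number as a random replicate block, 2 were called between mandible ends (Egr1 added, adjusted p = 0.0428). The blocks ended no planned call. In distal mandible 1 gene was called with cyclic loess (Jun, 1.10, adjusted p = 0.0483), 1 without the 4 control arrays of number 2 (Jun, 1.35, adjusted p = 0.0303) and 1 without knockout proximal maxilla 1 and 2 (Egr1, adjusted p = 0.0433). Between jaws 2 were called with arrays centred on their median (Atf3 added, 0.25, adjusted p = 0.0415) and 2 without knockout proximal maxilla 1 and 2. Between mandible ends 3 were called without control maxilla and knockout mandible 1 at both ends, 2 without knockout proximal maxilla 1 and 2, and 0 without control number 2 (Jun, adjusted p = 0.0845). Genotypes were separated for 2 members in distal maxilla without control maxilla and knockout mandible 1, and for 1 in proximal maxilla without its knockout arrays 1 and 2. Over all genes, such settings called 6 to 1102 for the mean genotype difference (70 in the main fit) and 13 to 66 in distal mandible (20). Between jaws they called 5189 to 7671 (6928), and between mandible ends 0 to 1024 (75). The member calls above move with that background. Counts of separated members, here and below, have no share over all genes beside them and are not read as a result about the members. The cause of these shifts was not tested.

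Ier2's mean genotype difference turned positive with cyclic loess (0.015), without control number 2 (0.027) and without knockout proximal maxilla 1 and 2 (0.047), and ran from -0.024 to 0.036 with single arrays left out; that of Egr2 in proximal maxilla turned to -0.21 without arrays 1 and 2. Leaving out single arrays, the members called ran from 0 to 3 for the mean difference, 0 to 2 in distal mandible, 0 to 1 in proximal maxilla, 1 to 3 between jaws, 0 to 2 between mandible ends and 0 to 1 between maxilla ends, and members separated from 0 to 2 in distal and 0 to 1 in proximal maxilla; no member was called in proximal mandible, distal maxilla or the interactions under any setting run. Over all genes the calls for the mean difference ran from 6 to 2132 in place of 70, so the background shares move with 1 array. They ran from 0 to 258 in distal mandible, 19 to 3366 in proximal maxilla and 6411 to 7059 between jaws. Between mandible ends they ran from 1 to 523, and between maxilla ends from 2 to 1696. With 3 arrays a group, the standard errors given limit what can be seen, and Fosb and Egr2 lie at or near background signal.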
